A study of Arabidopsis thaliana with 12 samples.

Results

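Leaf RNA of *rtnlb16-1* and Col-0 plants grown under long days (LD) was compared across all genes, with 3 libraries a side. These 6 libraries, of 12 in the series, were chosen by genotype and light regime alone. The groups are *rtnlb16-1* under LD (libraries 50, 51 and 52) and Col-0 under LD (libraries 47, 48 and 49), and the series also holds 3 libraries of each genotype from continuous low light (CLL). Col-0 is the common laboratory accession of *Arabidopsis thaliana* and the background of the mutant, and no other allele or agent is named for any of the plants. The mutant *rtnlb16-1* is 1 T-DNA line, Salk_122275. It carries a T-DNA concatemer on chromosome 3 with a small deletion in the region of *RTNLB16* and *MSD1*, which takes away the start of an *RTNLB16* splice form but not of the others, and the T-DNA holds elements of the viral 35S promoter. All LD plants grew on soil with 16 h of light and 8 h of dark at about 80 µmol m-2 s-1. The sample labels give this cycle as light then dark, while the text for the whole series writes the 2 in the other order. Mature leaves were taken at 4 weeks, and each library pools at least 3 plants, so the test below measures the spread between pools. The study describes *rtnlb16-1* rosettes under LD as small and chlorotic. In such bulk leaf samples, fewer cells of a type and less RNA per cell cannot be told apart.

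Reticulons are membrane proteins that insert into the endoplasmic reticulum (ER) with hairpin-shaped segments and help to bend it into tubules. Plants hold a large family of reticulon-like proteins of subfamily B (RTNLB), some of which are also found at plasmodesmata, the membrane-lined channels between neighbouring cells. In leaves, a day and night cycle drives daily changes in the expression of clock, photosynthesis, growth and stress genes, so the hour at which leaves were cut bears on their levels. That hour is not given in the sources used here.

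The insertion lies in a short stretch where *RTNLB16* (AT3G10915, minus strand) and *MSD1* (AT3G10920, plus strand) start back to back. The bases between both annotated genes in the RefSeq TAIR10.1 reference, chr3:3417810-3417939, are shown in Col-0 form. The deletion that the study reports also removes the first coding bases of a splice form of *RTNLB16*, which lie outside these bases.
RTNLB16-MSD1 gap: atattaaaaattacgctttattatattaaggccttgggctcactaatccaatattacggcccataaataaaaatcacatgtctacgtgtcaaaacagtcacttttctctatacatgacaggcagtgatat

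Upstream sequences are shown for called members of the groups described below that hold a motif of interest, chosen for the motif and not by the size of their change, each read 5′ to 3′ on the strand of the gene and ending at the base before its annotated start. In the first 5, capitals mark TGACG or its reverse complement CGTCA, the core of the sites bound by TGA factors. These genes encode glycosyltransferases (*UGT73B4*, chr2:6761465-6761634, plus strand, and *UGT73B3*, chr4:16344819-16344948, minus strand), glutathione transferases (*GSTU24*, chr1:5869363-5869542, plus strand, and *GSTU1*, chr2:12632539-12632628, minus strand) and a multidrug transporter (*DTX1*, chr2:1336551-1336610, minus strand), and all were higher in *rtnlb16-1*.
UGT73B4: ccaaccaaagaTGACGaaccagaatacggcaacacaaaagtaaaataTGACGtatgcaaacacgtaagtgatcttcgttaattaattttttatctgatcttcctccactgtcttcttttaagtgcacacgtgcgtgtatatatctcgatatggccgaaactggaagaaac
UGT73B3: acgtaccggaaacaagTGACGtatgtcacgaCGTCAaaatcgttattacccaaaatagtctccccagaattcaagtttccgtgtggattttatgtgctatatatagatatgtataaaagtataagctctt
GSTU24: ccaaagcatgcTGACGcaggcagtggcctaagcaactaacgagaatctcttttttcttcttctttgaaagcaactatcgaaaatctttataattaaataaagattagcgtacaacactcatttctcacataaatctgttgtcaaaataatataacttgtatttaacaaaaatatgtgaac
GSTU1: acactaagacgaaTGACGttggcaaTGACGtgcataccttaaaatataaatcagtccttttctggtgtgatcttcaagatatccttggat
DTX1: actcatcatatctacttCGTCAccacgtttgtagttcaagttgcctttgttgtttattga
In *BHLH38* (chr3:21085246-21085355, minus strand) and *BHLH100* (chr2:17199455-17199564, minus strand), which encode regulators of iron uptake and were lower in *rtnlb16-1*, capitals mark the G-box CACGTG.
BHLH38: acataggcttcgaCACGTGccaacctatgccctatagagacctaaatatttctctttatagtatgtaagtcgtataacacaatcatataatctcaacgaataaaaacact
BHLH100: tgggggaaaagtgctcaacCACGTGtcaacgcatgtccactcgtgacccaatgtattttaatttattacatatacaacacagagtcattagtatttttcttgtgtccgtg
In the evening-phased clock genes *PRR5* (chr5:8358547-8358746, minus strand) and *FKF1* (chr1:25508439-25508638, plus strand), which were higher in *rtnlb16-1*, capitals mark the reverse complement of the evening element AAAATATCT.
PRR5: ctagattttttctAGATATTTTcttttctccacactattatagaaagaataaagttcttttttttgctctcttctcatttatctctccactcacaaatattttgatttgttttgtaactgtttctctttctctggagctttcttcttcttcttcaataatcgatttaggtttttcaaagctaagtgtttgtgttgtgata
FKF1: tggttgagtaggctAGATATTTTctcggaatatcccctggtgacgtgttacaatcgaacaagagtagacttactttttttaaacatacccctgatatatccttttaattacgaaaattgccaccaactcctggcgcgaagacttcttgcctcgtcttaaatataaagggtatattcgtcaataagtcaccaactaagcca
A match to these letters is a description of the sequence and not evidence that a factor binds there. The share of all promoters with each motif is given at the end.

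The 6 LD libraries held 25954730 to 30621662 reads assigned to genes. As deposited by the authors, each value is a read count divided by the size factor of its library, and such values are called normalized counts here. Reads were found for 22706 to 23712 genes in *rtnlb16-1* and for 21363 to 22005 genes in Col-0, and the 10 genes with most reads took 8.22% to 11.4% of all reads in *rtnlb16-1* against 13.2% to 17.5% in Col-0 (exact permutation test, two-sided, p = 0.1 for both, the smallest p that 3 against 3 libraries can give). Over the 16663 genes with a mean of at least 50 in the series, the SD of the log2 ratio of both members of a replicate pair was 0.52 to 0.80 in *rtnlb16-1* and 0.61 to 0.68 in Col-0, with library 51 farthest from its own group. The leaf label was checked with photosynthesis genes, whose antenna proteins summed to 1917330 to 3345260 normalized counts in *rtnlb16-1* and 5133230 to 7430370 in Col-0. Markers of other tissues were not equal between the genotypes. The summed shoot meristem markers were 590, 531 and 992 in *rtnlb16-1*, against 14.3, 28.1 and 12.3 in Col-0, where the defining marker *STM* had no reads. Floral organ markers summed to 298, 590 and 650 in *rtnlb16-1* and 94.4, 84.4 and 106 in Col-0. Phloem markers summed to 5693 to 9198 in *rtnlb16-1* and 17133 to 18016 in Col-0, while root markers stayed at 10.3 to 22.9 in *rtnlb16-1* and 7.15 to 10.6 in Col-0 and seed markers below 10 in all 6. The library numbers 50 to 52 all belong to *rtnlb16-1* and 47 to 49 all to Col-0, so an effect of handling order and the genotype cannot be told apart.

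To call a gene higher or lower, limma was fitted to log2(normalized count + 1) of the 6 libraries, and the log2 fold change had to exceed 1 in size with an adjusted p (Benjamini-Hochberg) below 0.01, a scale that understates the change of genes with few reads. Fold changes are *rtnlb16-1* over Col-0, and values per library are given in the order 50, 51 and 52 for *rtnlb16-1* and 47, 48 and 49 for Col-0. *RTNLB16* itself, the gene beside the insertion, had 12665, 7577 and 8231 normalized counts in *rtnlb16-1*, against 769, 876 and 1016 in Col-0. All mutant libraries lay far above all Col-0 libraries, with a log2 fold change of 3.39 (SE 0.27, adjusted p = 4.5e-07 from limma). The counts are per gene and do not separate its splice forms.

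Only 1 other gene near the insertion passed the test. AT3G10910, annotated as a RING/U-box superfamily protein (a class that includes many ubiquitin ligases), starts 3790 bases from the start of *RTNLB16* on the same strand and lies next to its end. It had 529, 551 and 539 normalized counts in *rtnlb16-1*, against 58.6, 65.1 and 98.7 in Col-0. The 3 mutant libraries were nearly equal and far above the highest Col-0 library, and the log2 fold change was 2.88 (SE 0.33, adjusted p = 1.7e-05 from limma). *MSD1*, the manganese superoxide dismutase of mitochondria on the other side of the insertion, had 9423, 6609 and 7463 normalized counts in *rtnlb16-1* and 5726, 4885 and 7776 in Col-0, which overlap (log2 fold change 0.37, SE 0.28, adjusted p = 0.43 from limma). *LSF2*, a starch phosphatase gene 5646 bases away, had 621, 924 and 669 in *rtnlb16-1* and 1504, 975 and 1825 in Col-0 (log2 fold change -0.93, SE 0.29, adjusted p = 0.036 from limma) and was not called. Of the 19 genes that start within 25 kb of the start of *RTNLB16*, 16 had reads and were tested, and the 14 that were not called, *LSF2* and *MSD1* among them, all had adjusted p-values above the threshold. On chromosome 3 as a whole, 264 of the 5282 tested genes were called higher and 249 lower.

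**Figure D1:**
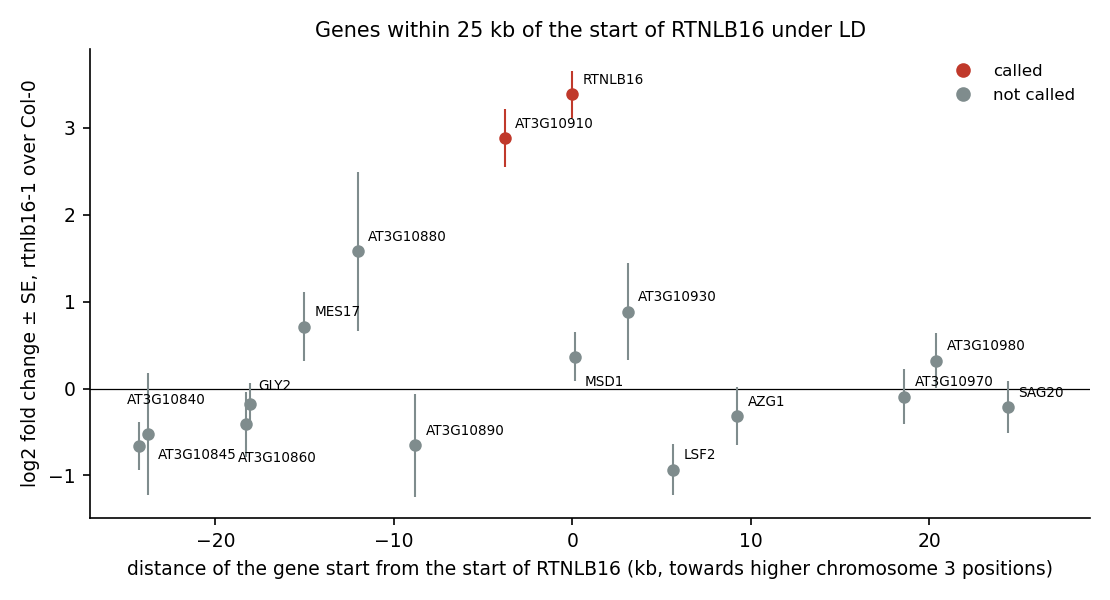
Log2 fold change with its standard error (vertical axis, *rtnlb16-1* over Col-0 under LD) of the tested genes within 25 kb of the start of *RTNLB16*, by distance of their starts in kb (horizontal axis). *RTNLB16* at 3.39 and AT3G10910 at 2.88 stand above all other genes of the window, and *MSD1* at 0.37 lies among the genes that were not called.

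Across the genome, 1464 of the 26495 genes with reads in any of the 6 libraries were called higher in *rtnlb16-1* (5.53%) and 1231 were called lower (4.65%). The calls spread over all chromosomes, at 5.0% to 6.14% of the tested genes of a chromosome called higher and 4.38% to 4.81% called lower. Higher calls held more genes with few reads. A log2 fold change above 3 was found for 605 of the higher genes and one below -3 for 278 of the lower genes, and 285 of the higher genes had no read in any Col-0 library, while 23 of the lower genes had none in *rtnlb16-1*. Among called genes with a mean above 1000 normalized counts the balance was the other way, with 240 higher and 428 lower. For genes without reads the floor differed by genotype. A single read was worth 1.37 to 1.76 normalized counts in Col-0 and 0.88 to 1.29 in *rtnlb16-1*, so a low level is more easily 0 in Col-0. Its part in these counts was not tested. For none of the 2695 called genes did the groups overlap, beside 31.2% of all tested genes with no overlap. On the reads themselves, edgeR called 7.11% of the genes higher and 6.53% lower, and DESeq2 6.09% higher and 6.31% lower, and 2406 of the genes called by limma were called in the same direction by both. The median log2 fold change over all tested genes was 0.06.

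These counts needed all 3 replicates of both groups. With 1 library left out, the higher calls fell to 81 without library 47, 281 without 48, 129 without 49, 176 without 50, 454 without 51 and 117 without 52, and the lower calls fell to 36, 124, 33, 35, 114 and 19 in the same order. When the spread was taken from all 12 libraries of the series, an alternative chosen after seeing the data for the leave-one-out fits, 1183 to 1579 genes were higher and 1115 to 1558 lower with any 1 LD library left out. Of the 320 called list members, 26 to 78 were called in the 6-library leave-one-out fits, and ranges are given below for some of the lists.

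**Figure D2:**
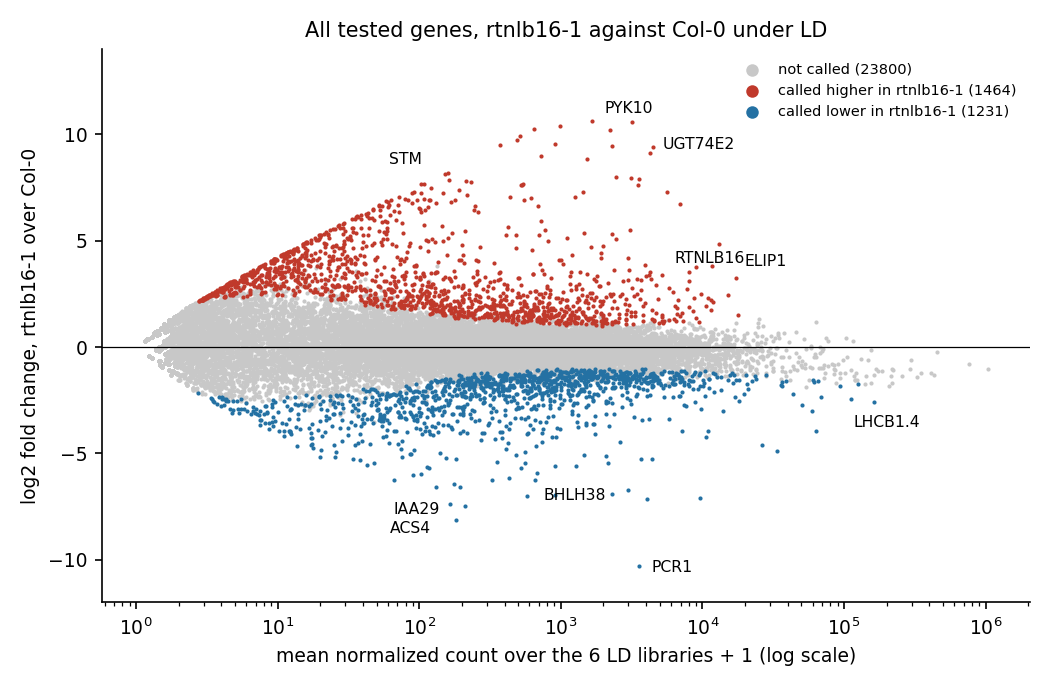
Log2 fold change of each of the 26495 tested genes (vertical axis, *rtnlb16-1* over Col-0 under LD) against its mean normalized count + 1 over the 6 libraries (horizontal axis, log scale), with 1464 genes called higher and 1231 called lower in colour. The largest changes in both directions exceed 10 on the log2 scale, and called genes are found at low and at high mean counts.

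In 71 genes the call held whichever of the 6 libraries was left out, with 59 higher and 12 lower in *rtnlb16-1*. Of the 59, 32 had no read in Col-0. The 27 with Col-0 reads included the glycosyltransferases *UGT74E2* and *UGT73B2*, the transporters *DTX1* and AT2G04050, the factors *NAC032* and *NAC044* and the ER body enzyme *PYK10*, all described below. The 12 lower genes included 3 of hormone pathways (*ACS4*, *IAA6* and *BAS1*) and 2 of defence (*ACD6* and *CRK4*).

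Several genes known from detoxification were called higher, with counts that differed between families. In detoxification a cytochrome P450 or a reductase activates a compound, a glycosyltransferase (UGT) or glutathione transferase (GST) attaches a sugar or glutathione, and a transporter moves the product out of the cytosol. Of the UGT73 family, 7 of 9 tested members were higher and none lower, with a median log2 fold change of 5.51, and both edgeR and DESeq2 called the same number. *UGT73B2* had 4622, 7657 and 5791 normalized counts in *rtnlb16-1*, against 134, 151 and 104 in Col-0, and its neighbour *UGT73B3* had 623, 1872 and 1188 against 12.9, 1.76 and 16.5 in Col-0. *UGT73B5* had 1050, 2010 and 1493 in *rtnlb16-1* and 25.7, 47.5 and 24.7 in Col-0. For all 3 genes the genotypes were far apart, with log2 fold changes of 5.51 (SE 0.28), 7.0 (SE 0.61) and 5.51 (SE 0.37). *UGT73B4* had 817, 1844 and 1192 in *rtnlb16-1* and no read in Col-0, which makes it at least 282-fold higher against a floor of 3 reads per library. Library 51 was the highest mutant library for each of these 4 genes. The UGT73 counts were 2 to 6 higher and 0 to 1 lower in the leave-one-out fits.

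Tau glutathione transferases split by member. Of 26 tested, 8 were higher and 2 lower (*GSTU18* and *GSTU20*), with a median log2 fold change of 0.48, while edgeR called 9 higher and 5 lower. *GSTU24* had 3475, 6975 and 4117 normalized counts in *rtnlb16-1*, against 15.7, 10.6 and 30.2 in Col-0 (log2 fold change 7.99, SE 0.39, adjusted p = 2.9e-09 from limma). *GSTU1* had 1652, 4746 and 2168 in *rtnlb16-1* and 42.9, 1.76 and 34.3 in Col-0, and *GSTU25* had 85.2, 199 and 160 in *rtnlb16-1* and 2.86, 0 and 2.74 in Col-0. *GSTU4* had 194, 492 and 214 in *rtnlb16-1*, against 1.43, 3.52 and 41.1 in Col-0, where library 49 stood above the other two. The phi class, by contrast, had 2 higher members and 1 lower among 11, and *GSTF2*, an auxin- and camalexin-binding transferase, had 99.4, 65.1 and 117 in *rtnlb16-1* against 223, 436 and 525 in Col-0 (log2 fold change -2.02, SE 0.39). With 1 library left out, 0 to 4 tau members were higher.

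The transporter *DTX1*, which exports toxic compounds, had 7884, 5431 and 5884 normalized counts in *rtnlb16-1*, against 1.43, 7.04 and 2.74 in Col-0 (log2 fold change 10.56, SE 0.42, adjusted p = 3.2e-10 from limma). AT2G04050, another transporter of this MATE class beside it on chromosome 2, had 6249, 3322 and 4233 in *rtnlb16-1* and 2.86, 8.80 and 5.49 in Col-0. *CYP81D8*, a cytochrome P450 of chemical-stress responses, had 592, 563 and 693 in *rtnlb16-1* and 87.2, 209 and 80.9 in Col-0, and the family of 16 CYP81 genes had 3 higher and 2 lower members with a median of -0.35. In the larger CYP71 family the count ran the other way, with 2 of 41 higher and 7 lower, among them *CYP71B24* at 7.74, 94.9 and 39.3 in *rtnlb16-1* and 599, 577 and 746 in Col-0. Over all tested genes 5.53% were called higher and 4.65% lower, so the 2 higher CYP71 genes are near the share of all genes.

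NAC transcription factors act downstream of several stress signals, and of 73 tested genes 10 were higher and 3 lower in *rtnlb16-1*. *NAC032* had 2071, 1678 and 1704 normalized counts in *rtnlb16-1*, against 129, 89.7 and 97.4 in Col-0 (log2 fold change 4.11, SE 0.28, adjusted p = 9.4e-08 from limma), and *NAC102* had 4085, 8444 and 4385 against 340, 220 and 346 in Col-0. *NAC044*, which holds back the cell cycle after DNA damage, had 535, 463 and 436 in *rtnlb16-1* and 4.29, 5.28 and 4.11 in Col-0. All values of both groups were tight for *NAC032* and *NAC044*. *NAC090* was among the lower members, with 1 read in *rtnlb16-1* and 12.9, 14.1 and 32.9 normalized counts in Col-0. The leave-one-out fits called 2 to 5 NAC genes higher.

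Genes of mitochondrial retrograde signalling, by which mitochondria report dysfunction to the nucleus, had 3 higher and no lower members among 10. *AOX1A*, the inducible alternative oxidase, had 7032, 6539 and 5401 normalized counts in *rtnlb16-1*, against 1244, 551 and 1296 in Col-0 (log2 fold change 2.71, SE 0.32). The small heat shock protein gene AT5G51440 had 441, 295 and 339 in *rtnlb16-1* and 18.6, 15.8 and 26.1 in Col-0. *NAC13*, a regulator of this response, had 703, 883 and 543 in *rtnlb16-1* and 306, 234 and 269 in Col-0. In each of the 3 the groups did not overlap, as in every called gene, and the remaining 7, such as *AOX1D* and *OM66*, were not called. The mitochondrial share of all reads was 0.0204% to 0.129% in *rtnlb16-1* and 0.0328% to 0.0362% in Col-0, and its part in these values was not tested.

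Among 18 genes of reactive oxygen metabolism and signalling, 3 were higher and none lower, with a median of 0.02. The kinase gene *OXI1*, part of singlet oxygen and peroxide signalling, had 172, 209 and 261 normalized counts in *rtnlb16-1*, against 5.72, 3.52 and 8.23 in Col-0 (log2 fold change 5.02, SE 0.49). *ZAT12*, a zinc finger factor of oxidative and light stress, had 975, 530 and 1176 in *rtnlb16-1* and 30.0, 134 and 162 in Col-0. The catalase gene *CAT1* had 1384, 1700 and 1660 in *rtnlb16-1* and 402, 519 and 233 in Col-0, while the main leaf catalase *CAT2* had 56883, 58401 and 57466 in *rtnlb16-1* and 51950, 70690 and 57658 in Col-0 and was not called. The early light-induced proteins, which bind chlorophyll under excess light, were both higher. *ELIP2* had 32741, 21665 and 21057 in *rtnlb16-1*, against 462, 769 and 1764 in Col-0 (log2 fold change 4.85, SE 0.39, adjusted p = 4.7e-07 from limma), and *ELIP1* had 42938, 19507 and 30172 against 1626, 2632 and 7060 in Col-0. None of the other 5 members of that list was called.

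Flavonoid and anthocyanin genes were called in 1 direction in the fit of all 6 libraries. Of 24 flavonoid and anthocyanin genes, 11 were higher and none lower (median log2 fold change 1.5). In the leave-one-out fits 0 to 4 were higher and 0 to 1 lower. *DFR*, which makes the leucoanthocyanidin precursors, had 1027, 1108 and 1019 normalized counts in *rtnlb16-1*, against 2.86, 0 and 38.4 in Col-0. *LDOX*, the next enzyme, had 741, 760 and 872 in *rtnlb16-1* and 18.6, 7.04 and 56.2 in Col-0. *UF3GT*, which adds a sugar, had 763, 229 and 393 in *rtnlb16-1* and 0, 0 and 5.49 in Col-0, and *5MAT*, which adds malonate, had 360, 174 and 242 against 0, 0 and 11 in Col-0. *GSTF12*, needed to bring anthocyanins into the vacuole, had 1961, 748 and 1460 in *rtnlb16-1* and 55.8, 118 and 245 in Col-0. In all 5 genes Col-0 library 49 was the highest of its group, and, as in every called gene, the groups did not overlap. The early enzymes CHI and TT7 were also among the 11, while *CHS*, the enzyme that opens the whole flavonoid pathway, had 52207, 29312 and 44122 in *rtnlb16-1* and 23037, 29695 and 25698 in Col-0, with overlap, and was not called (log2 fold change 0.65, adjusted p = 0.24 from limma). Of the regulators, *TT8* had 27.1, 19.3 and 38.1 in *rtnlb16-1* and 0, 0 and 2.74 in Col-0. *PAP2*, which had 25.8, 5.27 and 25 in *rtnlb16-1* and 0, 3.52 and 0 in Col-0, was called by limma and edgeR but not by DESeq2.

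ER bodies are ER-derived compartments that store the beta-glucosidase *PYK10* and are common in roots and seedlings. Of 14 ER body genes, 6 were higher and 1 lower in *rtnlb16-1*, with a median log2 fold change of 1.23 and 2 to 5 higher in the leave-one-out fits. *PYK10* had 2827, 3692 and 3441 normalized counts in *rtnlb16-1*, against 2.86, 0 and 1.37 in Col-0 (log2 fold change 10.62, SE 0.48, adjusted p = 1.3e-09 from limma). *NAI2*, which is needed to form the bodies, had 87.7, 304 and 202 in *rtnlb16-1* and 18.6, 10.6 and 23.3 in Col-0. The jacalin-related lectin gene *JAL33* had 365, 379 and 526 in *rtnlb16-1* and 0, 1.76 and 1.37 in Col-0, and *JAL31* had 41.3, 59.8 and 64.3 against 0, 1.76 and 0 in Col-0. *JAL22* had 578, 776 and 857 in *rtnlb16-1* and no read in Col-0, at least 162-fold. Root markers beside these genes stayed below 25 in every library, with *CASP2* at 5.16, 6.15 and 1.19 in *rtnlb16-1* and 5.72, 1.76 and 4.11 in Col-0 and RHD6 at 0 in all. The ER folding and unfolded protein response genes, in contrast, had 1 higher and 2 lower members among 25 and a median of 0.13. *BIP3*, the stress-induced ER chaperone, had 2.58, 14.9 and 7.14 in *rtnlb16-1* and 28.6, 157 and 101 in Col-0, and *CRT3*, the calreticulin that folds immune receptors, had 666, 1078 and 885 against 1852, 2880 and 2315 in Col-0. The higher member was *NAC089*, an ER-membrane-bound factor, at 317, 674 and 413 in *rtnlb16-1* and 184, 162 and 154 in Col-0.

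Among the other reticulons, 2 were called. AT2G20590 had 46.5, 80.0 and 60.7 normalized counts in *rtnlb16-1*, against 14.3, 12.3 and 11 in Col-0, and AT3G54120 had 101, 59.8 and 117 in *rtnlb16-1* against 215, 382 and 333 in Col-0. Of 19 tested family members 2 were higher, *RTNLB16* included, and 1 was lower, and the median log2 fold change was -0.15. Plasmodesmata genes had 1 called member of 11. *PDCB2*, a callose-binding protein of plasmodesmata, had 572, 349 and 649 in *rtnlb16-1* and 45.8, 38.7 and 76.8 in Col-0 (log2 fold change 3.27, SE 0.38).

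**Figure D3:**
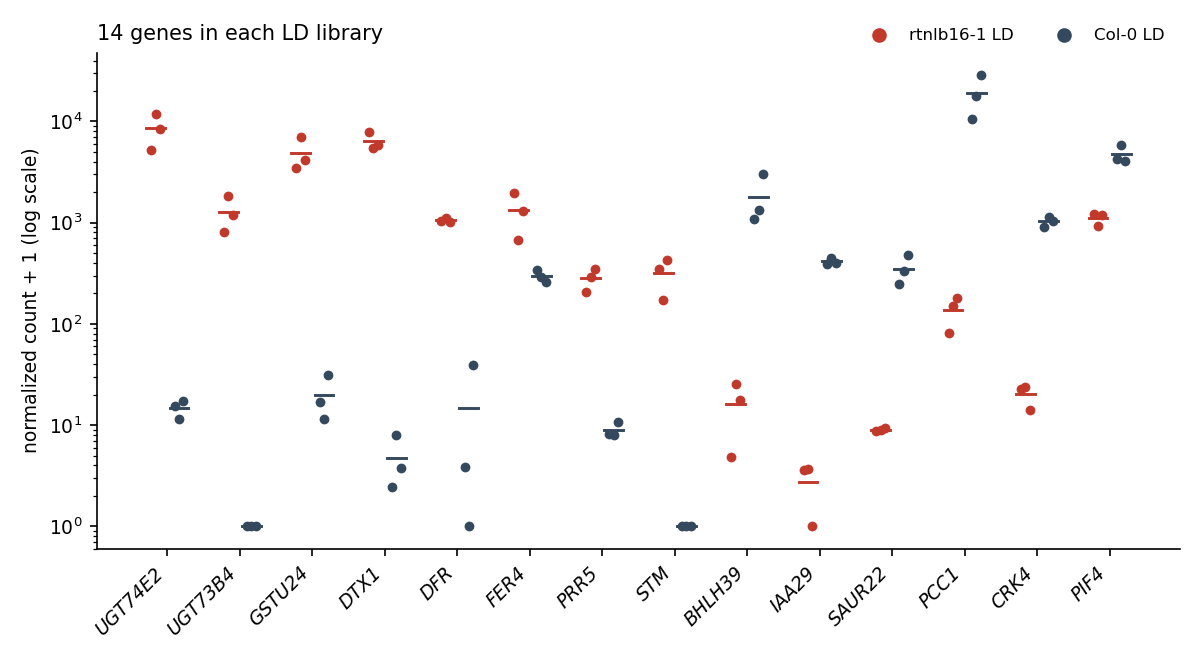
Normalized count + 1 (vertical axis, log scale) of 14 genes in each *rtnlb16-1* (left) and Col-0 (right) LD library, with bars at the group means. All 14 are called genes, and groups do not overlap for any of the 2695 called genes, beside 31.2% of all tested genes with no overlap. *UGT74E2* had 5231 to 11949 in *rtnlb16-1* and 10.6 to 16.5 in Col-0. *PCC1* had 80.0 to 179 in *rtnlb16-1* and 10660 to 28716 in Col-0.

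Clock genes were called in both directions. Of 24 clock genes 6 were higher (*PRR5*, *TOC1*, *GI*, *LUX*, *ELF3* and *FKF1*) and 3 lower (*RVE8*, *CHE* and *COL2*). *PRR5*, a repressor that acts in the afternoon and evening, had 206, 292 and 350 normalized counts in *rtnlb16-1*, against 7.15, 7.04 and 9.60 in Col-0 (log2 fold change 4.97, SE 0.45, adjusted p = 1.6e-06 from limma). *FKF1*, a blue light receptor of the photoperiod pathway, had 74.8, 105 and 106 in *rtnlb16-1* and 4.29, 5.28 and 2.74 in Col-0. *GI*, its partner, had 2648, 2645 and 2888 in *rtnlb16-1* and 565, 529 and 331 in Col-0. Neither genotype came near the other in these genes. *TOC1* had 428, 533 and 446 in *rtnlb16-1* and 186, 153 and 136 in Col-0. Of the evening complex, *ELF3* had 290, 508 and 470 in *rtnlb16-1* against 84.4, 79.2 and 64.5 in Col-0, and *LUX* had 1080, 859 and 833 against 279, 276 and 466 in Col-0. Of the morning genes, *CCA1* and *LHY* were not called, with *CCA1* at 1223, 4931 and 2178 in *rtnlb16-1* and 3355, 4340 and 2654 in Col-0, and *LHY* at 994, 2675 and 1336 in *rtnlb16-1* and 2274, 2164 and 2230 in Col-0. Library 51 was the highest and library 50 the lowest of the mutant group for both. In the leave-one-out fits 0 to 3 clock genes were higher. Whether all leaves were cut at the same hour was not given, and its part in these values was not tested.

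Most shoot meristem and flower markers, and 10 of 32 cell cycle genes, were called higher in the mutant leaf samples. Meristems hold the undifferentiated cells from which leaves and flowers form, and their class I KNOX genes are silent in mature leaves. Of 9 shoot meristem markers, 6 were higher and none lower (median 3.42, 1 to 4 higher in the leave-one-out fits). *STM*, the KNOX gene that keeps meristem cells undifferentiated, had 351, 170 and 426 normalized counts in *rtnlb16-1* and no read in Col-0, at least 69.2-fold. *KNAT1* had 77.4, 159 and 286 in *rtnlb16-1* and 0, 1.76 and 0 in Col-0, and the organ boundary gene *CUC2* had 36.1, 29.9 and 57.1 in *rtnlb16-1* and 0, 1.76 and 0 in Col-0. The stem-cell markers proper stayed near 0, with *CLV3* at 1.29, 5.27 and 2.38 in *rtnlb16-1* and 2.86, 5.28 and 0 in Col-0, and *WUS* at 5.16, 2.64 and 5.95 against 0, 0 and 2.74 in Col-0, and neither was called.

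Of 14 flowering regulators, 4 were higher, none was lower and 10 were not called. *LFY*, which specifies floral meristems, had 24.5, 22 and 42.9 normalized counts in *rtnlb16-1* and *AP1* had 40, 63.3 and 145, and neither had a read in Col-0 (at least 6.53-fold and 18.2-fold). *AGL8*, also known as FRUITFULL, had 308, 447 and 462 in *rtnlb16-1* and 82.9, 59.8 and 114 in Col-0, and *SPL9*, a factor of the adult phase, had 574, 922 and 844 against 194, 253 and 273 in Col-0. The floral signal *FT* had 36.1, 37.8 and 31.0 in *rtnlb16-1* and 37.2, 44.0 and 174 in Col-0, and its target *SOC1* had 888, 2105 and 1232 against 1459, 1263 and 2877 in Col-0, and neither was called. Floral organ identity genes had 5 higher members of 6. *PI* had 69.7, 104 and 129 in *rtnlb16-1* and 1.43, 3.52 and 0 in Col-0, and *SEP3* had 105, 126 and 211 against 11.4, 8.80 and 4.11 in Col-0. *AG*, which specifies stamens and carpels, had 24.5, 68.6 and 57.1 in *rtnlb16-1* and 64.4, 63.3 and 87.8 in Col-0 and was not called. Genes known from anthers were also seen, with *MS2*, a pollen wall reductase, at 123, 78.2 and 154 and *A7*, a lipid transfer protein, at 74.8, 75.6 and 127 in *rtnlb16-1*, and neither with a read in Col-0. The germline Argonaute gene *AGO5* had 31.0, 29.9 and 42.9 in *rtnlb16-1* and no read in Col-0, at least 7.58-fold. *SPL8*, a regulator of anther development, had 222, 125 and 296 in *rtnlb16-1* and no read in Col-0, at least 47.0-fold.

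Among 32 cell cycle genes, 10 were higher and 1 was lower (median 1.29, with none called in any leave-one-out fit), and edgeR called 18 and DESeq2 17 higher. The mitotic cyclin *CYCB1;1* had 51.6, 127 and 89.3 normalized counts in *rtnlb16-1*, against 8.58, 3.52 and 12.3 in Col-0. *PCNA2*, the sliding clamp of DNA replication, had 693, 721 and 618 in *rtnlb16-1* and 262, 77.4 and 213 in Col-0, and the Aurora kinase *AUR2* had 208, 144 and 219 against 35.8, 21.1 and 53.5 in Col-0. The lower member was *SMR7*, an inhibitor of cyclin-dependent kinases, at 14.2, 7.03 and 14.3 in *rtnlb16-1* and 41.5, 79.2 and 117 in Col-0. In the stomatal lineage and guard cell list, 3 of 9 genes were higher and none lower. The median log2 fold change of that list was 0.04, and edgeR called 1 member lower. *SPCH*, which starts the lineage in young epidermis, had 188, 222 and 254 in *rtnlb16-1* and 7.15, 10.6 and 8.23 in Col-0 (log2 fold change 4.53, SE 0.45, adjusted p = 3.9e-06 from limma). *TMM* had 861, 544 and 937 in *rtnlb16-1* and 95.8, 148 and 115 in Col-0. Trichome markers were called in both directions, *GL2* higher and *TRY* lower. The summed shoot meristem markers also differed by genotype, at 531 to 992 in *rtnlb16-1* and 12.3 to 28.1 in Col-0. The part that other tissue in the leaf pools had in all these values was not tested.

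Some of the most changed genes are known from, or annotated to families found in, the epidermis and cuticle, and these were picked after their values were seen, with no list of such genes tested. *PDF1* (protodermal factor 1), a marker of the outermost cell layer, had 14038, 5859 and 13685 normalized counts in *rtnlb16-1*, against 60.1, 127 and 38.4 in Col-0 (log2 fold change 7.27, SE 0.41, adjusted p = 1.1e-08 from limma). AT5G33370, annotated as a GDSL-like lipase, had 1319, 1295 and 2787 in *rtnlb16-1* and 1.43, 3.52 and 0 in Col-0. *CYP77B1*, a cytochrome P450, had 1235, 582 and 1281 in *rtnlb16-1* and no read in Col-0, at least 226-fold. AT1G62500, of the lipid transfer protein superfamily, had 2537, 898 and 2436 in *rtnlb16-1* and a single read in Col-0, while AT2G45180 of the same superfamily was lower, at 54736, 17634 and 38956 in *rtnlb16-1* and 144129, 213882 and 198080 in Col-0. Library 51 was the lowest mutant library for each of these 5 genes. *CYP86A1*, which makes the omega-hydroxy fatty acids of suberin, had 120, 73.8 and 113 in *rtnlb16-1* and no read in Col-0, at least 22.4-fold.

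ABC transporters of the G subfamily export cuticle and wax lipids, pollen wall material and hormones, and 13 of 42 ABCG genes were higher and none lower (median 0.79, 3 to 5 higher in the leave-one-out fits). *ABCG13*, which exports cutin in flowers, had 166, 230 and 281 normalized counts in *rtnlb16-1* and 4.29, 0 and 1.37 in Col-0. *ABCG15* had 73.5, 56.3 and 77.4 in *rtnlb16-1* and no read in Col-0, at least 15.1-fold, and *ABCG26*, a pollen wall transporter, had 14.2, 19.3 and 40.5 in *rtnlb16-1* with none in Col-0. Wax genes had 5 higher members and 1 lower among 14. *CER1*, which makes the alkanes of leaf wax, had 5999, 6769 and 10851 in *rtnlb16-1* and 777, 929 and 761 in Col-0 (log2 fold change 3.21, SE 0.27, adjusted p = 9.3e-07 from limma). *LACS1*, an acyl-CoA synthetase of wax and cutin, had 2702, 4115 and 3611 in *rtnlb16-1* and 772, 804 and 505 in Col-0. *CER4*, which makes primary alcohols, had 87.7, 131 and 311 in *rtnlb16-1* and 784, 487 and 512 in Col-0, and this call was lost when the spread came from all 12 libraries. The shoot meristem and flower marker sums given above also differed by genotype, and the part of such tissue in these values was not tested.

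**Figure D4:**
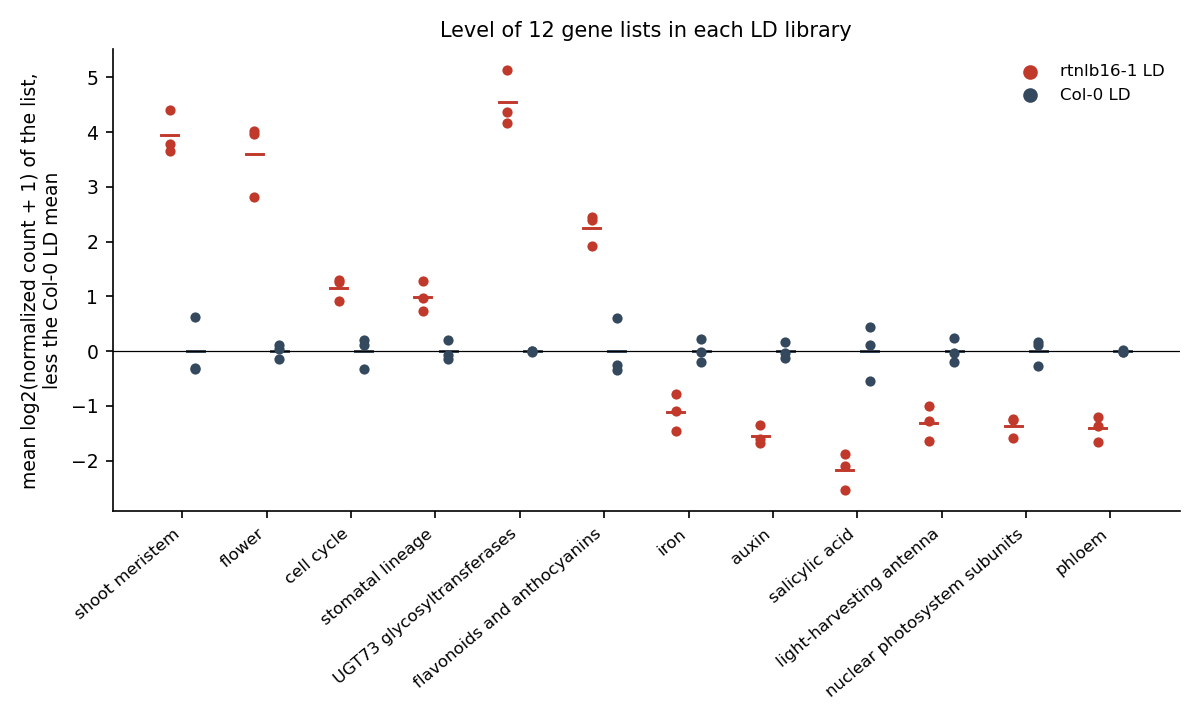
Mean log2(normalized count + 1) of 12 gene lists in each *rtnlb16-1* (left) and Col-0 (right) LD library, less the mean of the Col-0 libraries (vertical axis), with bars at group means. The UGT73 and shoot meristem lists have the highest mutant means over Col-0, and the salicylic acid, auxin, iron, antenna, photosystem and phloem lists are lower in all 3.

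Iron genes were called in both directions, most of them lower in *rtnlb16-1*. Arabidopsis leaves that sense too little iron raise the bHLH factors of subgroup Ib, which switch on uptake and transport, while ferritins store iron in plastids when it is plentiful. Of 33 tested iron genes, 13 were lower and 4 higher, with a median of -0.63. *BHLH39* had 3.87, 24.6 and 16.7 normalized counts in *rtnlb16-1*, against 1085, 1319 and 3005 in Col-0 (log2 fold change -6.97, SE 0.55, adjusted p = 3.6e-07 from limma). *BHLH38* had 0, 32.5 and 11.9 in *rtnlb16-1* and 734, 598 and 2082 in Col-0, and *BHLH100* had 1.29, 50.1 and 26.2 against 612, 957 and 2301 in Col-0. Library 51 was the highest of the mutant group and library 50 the lowest in all of these, and Col-0 library 49 was the highest of its group. *BHLH101* followed at 1.29, 41.3 and 15.5 in *rtnlb16-1* and 142, 127 and 329 in Col-0, a call that DESeq2 did not make. *PYE*, a repressor of the same response, had 74.8, 141 and 107 in *rtnlb16-1* and 535, 355 and 680 in Col-0, and *FRO3*, a mitochondrial ferric reductase, had 448, 637 and 507 against 2268, 2980 and 2608 in Col-0. AT1G47400, a further member of the iron list, had 169, 181 and 329 in *rtnlb16-1* and 1201, 3061 and 5151 in Col-0. Close to it on chromosome 1, AT1G47395, also of that list, had 174, 213 and 275 against 1230, 3019 and 5306 in Col-0.

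Of the ferritins, *FER2* and *FER4* were called higher and *FER1* and FER3 were not. *FER4*, a ferritin of plastids and mitochondria, had 1978, 673 and 1306 normalized counts in *rtnlb16-1*, against 339, 288 and 256 in Col-0 (log2 fold change 2.04, SE 0.35, adjusted p = 0.00064 from limma). The ferritin gene *FER2*, known from seeds, had 160, 30.8 and 84.5 in *rtnlb16-1* and 1.43, 8.80 and 2.74 in Col-0, and *NEET*, an iron-sulfur protein, had 6570, 2785 and 5189 against 1001, 1212 and 675 in Col-0. Here library 50 was the highest and library 51 the lowest of the mutant group, the reverse of the bHLH genes. *FER1*, the main leaf ferritin, had 5559, 1608 and 3360 in *rtnlb16-1* and 1208, 1766 and 1097 in Col-0, with overlap through library 51, and was not called (log2 fold change 1.23, SE 0.37, adjusted p = 0.030 from limma). The root iron transporter *IRT1* had 0, 52.7 and 2.38 in *rtnlb16-1* and 0, 5.28 and 12.3 in Col-0 and was not called, and *BTS*, the ubiquitin ligase that limits the response, had 2690, 3671 and 3256 against 5832, 6503 and 4044 in Col-0 (adjusted p = 0.070 from limma). The leave-one-out fits called at most 1 iron gene, while edgeR called 13 and DESeq2 12 lower.

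Auxin genes held more lower calls than any other list fixed for this comparison. Auxin drives cell expansion in leaves and hypocotyls, and Aux/IAA and SAUR genes are its rapid targets. Of 36 auxin genes 20 were lower and 4 higher, with a median of -1.72 (2 to 5 lower in the leave-one-out fits). The repressor gene *IAA29* had 2.58, 2.64 and 0 normalized counts in *rtnlb16-1*, against 393, 447 and 400 in Col-0, and *IAA6* had 2.58, 1.76 and 2.38 against 223, 183 and 199 in Col-0 (log2 fold change -5.97, SE 0.49, adjusted p = 6.1e-07 from limma). Both groups were tight in both genes. *IAA1* had 15.5, 78.2 and 40.5 in *rtnlb16-1* and 289, 368 and 365 in Col-0. Of the flavin monooxygenases that make auxin, *YUC8* had 3.87, 6.15 and 14.3 in *rtnlb16-1* and 90.1, 141 and 49.4 in Col-0, and *YUC9* had 0, 0 and 3.57 against 28.6, 33.4 and 31.5 in Col-0. The 4 higher members were all of the GH3 family, which conjugates auxin to amino acids. *GH3.2* had 34.8, 43.1 and 57.1 in *rtnlb16-1* and 5.72, 1.76 and 0 in Col-0, and *GH3.17* had 58.1, 157 and 127 against 18.6, 17.6 and 12.3 in Col-0.

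SAUR genes loosen growth by activating proton pumps at the plasma membrane. Those taken by symbol, some of which are also counted in the auxin list, had 12 lower members of 16, 1 higher and a median of -3.48. *SAUR22* had 7.74, 7.91 and 8.33 normalized counts in *rtnlb16-1*, against 249, 329 and 476 in Col-0 (log2 fold change -5.24, SE 0.44, adjusted p = 7.6e-07 from limma). *SAUR24*, from the same cluster on chromosome 5, had 52.9, 49.2 and 85.7 in *rtnlb16-1* and 714, 885 and 1709 in Col-0, and *SAUR26*, from a cluster on chromosome 3, had 34.8, 17.6 and 21.4 against 360, 500 and 702 in Col-0. The higher member was *SAUR36*, a senescence-related gene. *SAUR19* shares 18.5% of its 50-base stretches with other places in the genome, so reads could be split among copies. Only 0 to 1 SAUR genes were lower in the leave-one-out fits, whereas edgeR and DESeq2 each called 13.

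Wall and shade genes were called in both directions. Of 9 expansins, proteins that loosen cell walls, *EXPA8* and *EXPA11* were lower and *EXPA10* and *EXPA15* higher. *EXPA11* had 246, 90.6 and 438 normalized counts in *rtnlb16-1*, against 5549, 11504 and 8469 in Col-0 (log2 fold change -5.24, SE 0.44), and *EXPA8* had 1258, 715 and 1244 against 15344, 26970 and 17820 in Col-0. *EXPA10* had 23834, 10505 and 16308 in *rtnlb16-1* and 1018, 1624 and 998 in Col-0 (log2 fold change 3.76, SE 0.32). Xyloglucan endotransglucosylases, which cut and rejoin wall polymers, had 6 lower and 2 higher members of 27, with *XTH6* at 2817, 1949 and 2804 in *rtnlb16-1* and 16272, 11320 and 17819 in Col-0. *PIF4*, the bHLH factor that couples light and temperature to elongation, had 1215, 918 and 1191 in *rtnlb16-1* and 4305, 5877 and 4046 in Col-0 (log2 fold change -2.09, SE 0.26, adjusted p = 3.7e-05 from limma). Shade-induced homeobox genes split, with *HAT2* at 102, 266 and 186 in *rtnlb16-1* and 752, 939 and 1026 in Col-0, and *HB4* higher at 36.1, 35.2 and 71.4 against 10, 8.80 and 5.49 in Col-0. Over the 19 shade and PIF genes 4 were lower and 1 higher.

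Among ethylene, gibberellin, cytokinin and brassinosteroid genes, 8 of 32 were lower and 2 higher. *ACS8*, which makes the ethylene precursor, had 2.58, 0.879 and 9.52 normalized counts in *rtnlb16-1*, against 71.5, 66.8 and 71.3 in Col-0. *BAS1*, which inactivates brassinosteroids, had 29.7, 40.4 and 40.5 in *rtnlb16-1* and 699, 832 and 653 in Col-0 (log2 fold change -4.27, SE 0.34, adjusted p = 3.7e-07 from limma). *GA2OX8*, which inactivates gibberellin precursors, was higher, at 38.7, 27.3 and 28.6 in *rtnlb16-1* and 0, 0 and 5.49 in Col-0. Among the most abundant transcripts that fell were those of the aquaporins *DELTA-TIP*, at 32457, 9083 and 29824 in *rtnlb16-1* and 78604, 180896 and 84630 in Col-0, and *PIP2A*, at 52428, 27201 and 46921 against 120184, 154579 and 159897 in Col-0.

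Salicylic acid (SA) defence genes were mostly lower in *rtnlb16-1*. SA is the hormone of resistance against biotrophic pathogens. Of 30 SA genes 16 were lower and 1 higher, with a median of -2.25 (0 to 5 lower in the leave-one-out fits). *PR2*, a beta-1,3-glucanase, had 19.4, 17.6 and 31.0 normalized counts in *rtnlb16-1*, against 568, 1595 and 1125 in Col-0 (log2 fold change -5.46, SE 0.42, adjusted p = 2.8e-07 from limma). *PR1* had 1.29, 14.1 and 2.38 in *rtnlb16-1*, against 120, 278 and 1550 in Col-0, a wide spread among the Col-0 libraries. *WRKY70*, a regulator of this output, had 28.4, 75.6 and 42.9 in *rtnlb16-1* and 385, 626 and 687 in Col-0, and *WRKY54*, its close relative, had 11.6, 20.2 and 10.7 against 199, 139 and 432 in Col-0. *ICS1*, the enzyme that makes most SA, had 427, 426 and 386 in *rtnlb16-1* and 599, 572 and 421 in Col-0 and was not called (log2 fold change -0.35, SE 0.28, adjusted p = 0.46 from limma). The higher member, *UGT74F2*, glucosylates SA and had 4512, 9537 and 4699 in *rtnlb16-1* and 890, 577 and 521 in Col-0 (log2 fold change 3.19, SE 0.32, adjusted p = 4.5e-06 from limma). *DLO1*, which hydroxylates SA, was lower, at 1.29, 3.52 and 0 in *rtnlb16-1* and 60.1, 338 and 134 in Col-0.

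*ACD6*, an ankyrin membrane protein that raises SA-dependent defence and restrains leaf growth, had 160, 252 and 161 normalized counts in *rtnlb16-1*, against 7657, 6996 and 6887 in Col-0 (log2 fold change -5.26, SE 0.26, adjusted p = 4.1e-09 from limma). Its Col-0 values lay within a narrow range, unlike those of *PR1*, and the call held in all leave-one-out fits. *LURP1*, needed for resistance to an oomycete, had 34.8, 44.8 and 67.9 in *rtnlb16-1* and 2466, 5590 and 9684 in Col-0. *PCC1*, a cysteine-rich membrane protein gene, had 80.0, 150 and 179 in *rtnlb16-1* and 10660, 17862 and 28716 in Col-0, and AT3G22235, a related gene nearby on chromosome 3, had 42.6, 36.9 and 77.4 against 3196, 11458 and 9433 in Col-0. Because 38.2% of *PCC1* and 85.7% of AT3G22235 consist of 50-base stretches repeated elsewhere, their reads may have been shared with each other or with related copies. Library 47 was the lowest Col-0 library for *LURP1*, *PCC1* and AT3G22235.

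Cysteine-rich receptor-like kinases (CRKs), many of which respond to SA and oxidants, were taken by symbol, which can admit other kinases. The family had 18 lower and 2 higher members of 39, with a median of -1.29 and 1 to 7 lower in the leave-one-out fits. *CRK4* had 21.9, 22.9 and 13.1 normalized counts in *rtnlb16-1*, against 912, 1138 and 1037 in Col-0 (log2 fold change -5.70, SE 0.36, adjusted p = 4.3e-08 from limma). *CRK5* had 19.4, 3.52 and 4.76 in *rtnlb16-1* and 379, 150 and 277 in Col-0, and *CRK6*, with 22% of its 50-base stretches repeated elsewhere, had 6.45, 4.4 and 11.9 against 242, 347 and 309 in Col-0. Wall-associated kinases, receptors for pectin, had 4 lower and no higher members of 12, with *WAK1* at 215, 593 and 423 in *rtnlb16-1* and 1180, 2199 and 1352 in Col-0. WRKY factors as a family were mixed, with 7 lower and 5 higher of 62 and a median of 0.29. The higher *WRKY14* had 40, 34.3 and 71.4 in *rtnlb16-1* and no read in Col-0, at least 10.7-fold.

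Of 29 tested jasmonate genes 8 were lower and 3 higher. The lower ones included 4 of synthesis (*LOX2*, *AOS*, AOC1 and *AOC2*), while LOX3, LOX4, AOC3, *OPR3* and JAR1 were not called. *LOX2*, which starts jasmonate synthesis in plastids, had 1769, 1664 and 2560 normalized counts in *rtnlb16-1*, against 14087, 13420 and 12193 in Col-0 (log2 fold change -2.75, SE 0.27, adjusted p = 3.2e-06 from limma). *AOS*, the next enzyme, had 3339, 1601 and 2216 in *rtnlb16-1* and 14334, 19622 and 17668 in Col-0, and *AOC2* had 516, 324 and 361 against 3796, 2104 and 5421 in Col-0. The later peroxisomal enzyme *OPR3* had 746, 498 and 829 in *rtnlb16-1* and 775, 1064 and 846 in Col-0. *VSP2*, a jasmonate-induced storage protein, had 1104, 1447 and 2156 in *rtnlb16-1* and 179, 297 and 523 in Col-0, and *VSP1* had 137, 303 and 530 against 25.7, 8.80 and 50.7 in Col-0. *PDF1.2*, the defensin of the jasmonate and ethylene branch, was lower at 45.2, 7.91 and 27.4 in *rtnlb16-1* and 192, 579 and 446 in Col-0. The third higher member, *THI2.1*, had 3.87, 6.15 and 2.38 in *rtnlb16-1* and no read in Col-0, near the floor of 3 reads, and neither edgeR nor DESeq2 called it. In the leave-one-out fits 0 to 2 jasmonate genes were lower.

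Glucosinolates are sulfur-rich defence compounds of the cabbage family. Of 23 genes of their synthesis, transport and breakdown, 8 were lower and none higher (median -0.94). *CYP79F1*, the entry step for methionine-derived glucosinolates, had 2644, 3449 and 4903 normalized counts in *rtnlb16-1*, against 7800, 13594 and 8725 in Col-0. *CYP83B1*, of the tryptophan-derived branch, had 2308, 2394 and 3003 in *rtnlb16-1* and 5898, 8487 and 5834 in Col-0, and *CYP79B3*, which feeds both that branch and camalexin, had 361, 409 and 308 against 1404, 1267 and 1418 in Col-0 (log2 fold change -1.93, SE 0.26, adjusted p = 7.3e-05 from limma). *ESP*, a specifier of breakdown products, had 872, 498 and 1005 in *rtnlb16-1* and 2890, 3304 and 3326 in Col-0. Camalexin and tryptophan genes had 2 lower members of 9.

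Photosynthesis genes had negative log2 fold changes in every member of 3 lists, but few members passed the limma threshold. Photosystem subunits of the nuclear genome had 7 lower and no higher members of 21, and all 21 had a negative log2 fold change (median -1.34), with edgeR calling 18 and DESeq2 20 lower. *PSAH2*, a subunit of photosystem I, had 17758, 14897 and 14393 normalized counts in *rtnlb16-1*, against 53653, 47021 and 70799 in Col-0 (log2 fold change -1.85, SE 0.33, adjusted p = 0.00089 from limma). *PSAD2* had 16495, 16714 and 19046 in *rtnlb16-1* and 45551, 70496 and 50827 in Col-0. The antenna proteins had 3 lower members of 19, all 19 negative (median -1.30), and edgeR and DESeq2 each called 15. *LHCB2.3* had 16487, 11337 and 12613 in *rtnlb16-1* and 79563, 104284 and 78122 in Col-0, whereas *LHCB1.1*, which shares 20.5% of its 50-base stretches with copies, had 535561, 255356 and 477571 against 373608, 642467 and 454970 in Col-0 and was not called. In the Calvin cycle 3 of 17 were lower (median -1.16), and edgeR called 10 and DESeq2 11. The Rubisco small subunit gene *RBCS1B* had 15820, 8441 and 14159 in *rtnlb16-1* and 77991, 151754 and 85610 in Col-0, while *RBCS1A* had 629325, 407889 and 599949 against 734551, 1393720 and 812927 in Col-0 (log2 fold change -0.81, SE 0.71, adjusted p = 0.51 from limma). Col-0 library 48 was the highest for *PSAD2*, *LHCB2.3*, *RBCS1B* and *RBCS1A*. With 1 library left out, no photosystem or Calvin cycle gene and at most 1 antenna gene was called.

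Chlorophyll synthesis had 4 lower members of 16 and none higher, and 3 of the 4 were the protochlorophyllide oxidoreductases, which use light to make chlorophyllide. *PORC* had 750, 2021 and 948 normalized counts in *rtnlb16-1*, against 6474, 4867 and 5313 in Col-0. *PORB* had 2453, 2652 and 3532 in *rtnlb16-1* and 10454, 11794 and 6658 in Col-0, and *PORA* had 15.5, 16.7 and 45.2 against 265, 260 and 140 in Col-0. *CHLM*, the methyltransferase of the magnesium branch, was the remaining one, at 10767, 9426 and 9525 in *rtnlb16-1* and 23403, 20636 and 24054 in Col-0. Senescence and chlorophyll breakdown genes had 1 higher and 2 lower members of 26 and a median of -0.02. The higher one was *NYC1*, a chlorophyll b reductase, at 2855, 3264 and 1998 in *rtnlb16-1* and 1083, 749 and 654 in Col-0. *NAP*, a NAC factor that drives leaf senescence, had 9.03, 17.6 and 26.2 in *rtnlb16-1* and 146, 178 and 139 in Col-0, and *WRKY53*, an early regulator, had 3.87, 9.67 and 13.1 against 45.8, 42.2 and 72.7 in Col-0. Phloem genes were lower as well, in 3 of 6 markers. *SWEET12*, a sugar exporter that feeds the phloem, had 18.1, 21.1 and 20.2 in *rtnlb16-1* and 107, 104 and 145 in Col-0, and the lectin gene *PP2-A1* had 1144, 1601 and 929 against 4885, 2617 and 6136 in Col-0. None of the 6 xylem markers was called.

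Abscisic acid genes had 4 higher and 1 lower members of 32 and a median of 0.15. *CYP707A2*, which degrades abscisic acid, had 597, 833 and 731 normalized counts in *rtnlb16-1*, against 72.9, 128 and 130 in Col-0 (log2 fold change 2.73, SE 0.33, adjusted p = 2.7e-05 from limma). The receptor gene *PYL6* had 1314, 533 and 891 in *rtnlb16-1* and 77.2, 223 and 80.9 in Col-0, and *HAI1*, a phosphatase that damps the signal, had 159, 53.6 and 194 against 2.86, 15.8 and 6.86 in Col-0. The lower member was *COR15A*, a cold- and drought-induced protein, at 417, 393 and 449 in *rtnlb16-1* and 935, 1156 and 2603 in Col-0. Its call was lost when the spread came from all 12 libraries. No list member for abscisic acid was called in any leave-one-out fit.

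**Figure D5:**
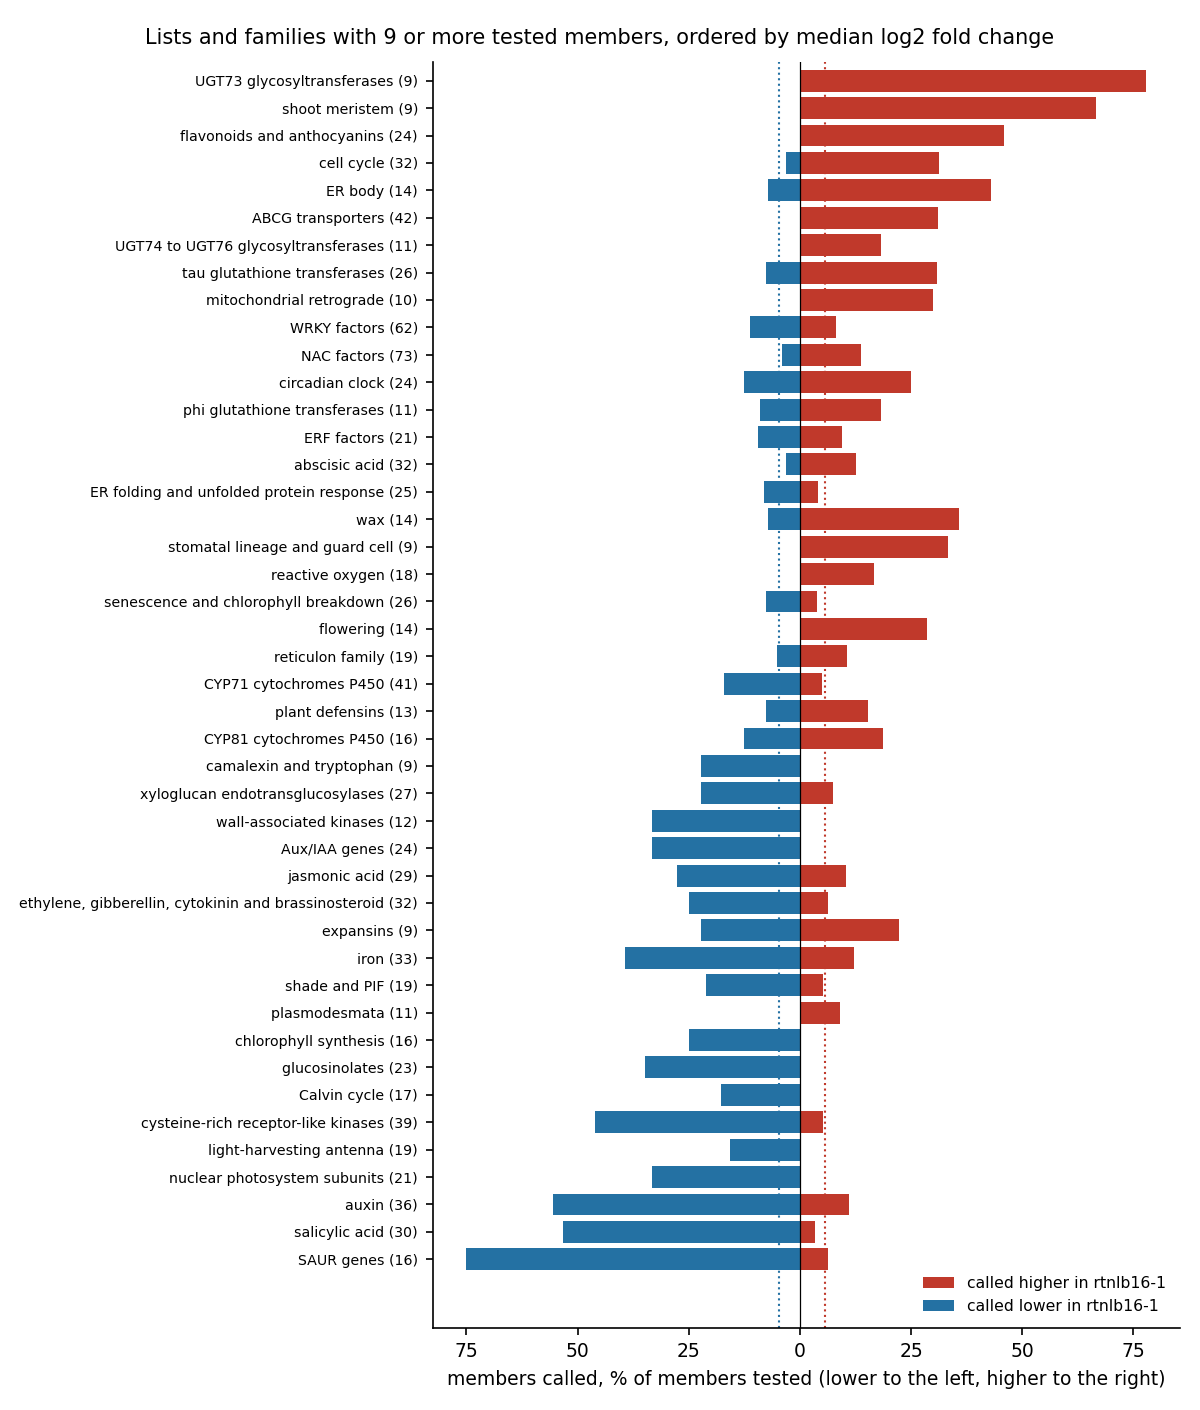
Members called higher (to the right) or lower (to the left) in *rtnlb16-1* as a percentage of the tested members (horizontal axis) of the lists and families with 9 or more tested members, whose number stands in brackets, in order of median log2 fold change (vertical axis). The UGT73 family (7 of 9 higher) and the SAUR genes (12 of 16 lower) have the largest shares, against 5.53% higher and 4.65% lower over all genes (dotted lines). Some genes are counted in both a list and a family.

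Promoters of called genes were compared for short motifs over 250 bases before to 50 bases after the annotated start, on both strands, for 1464 higher, 1226 lower and 26318 tested genes. The I-box core GATAAG, found in promoters of light-regulated genes, was present in 12.9% of higher, 22.3% of lower and 14.8% of all tested promoters. The evening element AAAATATCT was present in 4.1% of higher, 3.26% of lower and 2.82% of all, and in 4 of the 6 clock genes called higher. TGACG was present in 24.9% of higher, 23.3% of lower and 23.2% of all, and in 4 of the 7 UGT73 genes and 4 of the 8 tau glutathione transferases called higher. It was also in 5 of the 6 clock genes and 5 of the 10 NAC genes called higher. By contrast, it was in 1 of the 13 ABCG genes called higher and 0 of the 8 glucosinolate genes called lower. The lists set beside a motif here are a selection from all lists. The G-box CACGTG was present in 9.02% of higher, 9.14% of lower and 7.78% of all, and in 5 of the 13 iron genes and 5 of the 7 photosystem genes called lower. TTGAC, the core of the W-box bound by WRKY factors, which shares letters with TGACG where TTGACG occurs, was present in 49.8%, 54.4% and 50.0%, and the auxin response element TGTCTC in 16.2%, 14.1% and 14.1%, of higher, lower and all promoters in that order. Short motifs occur often by their length alone, and no test was made of these shares.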

How the data were processed

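Leaf RNA was sequenced on an Illumina HiSeq and, as the study's methods state, aligned with STAR to TAIR10, counted per gene with HTSeq on Araport11 and tested with DESeq2. Whether counting used strand is not given in the sources used here. The deposited values are read counts divided by the size factor of each library by the authors (a scaled coverage signal per gene, 37336 genes), and 100% of them were whole multiples of the value of 1 read within 1e-06, which gave back the reads used by edgeR and DESeq2. RefSeq TAIR10.1 supplied names for 37051 genes, coordinates and sequences, and 58 of the 255 named genes overlap another gene.

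Genes with a read in any of the 6 LD libraries were fitted with limma 3.58.1 (R 4.3.3) on log2(value + 1), with an absolute log2 fold change above 1 and Benjamini-Hochberg adjusted p under 0.01 as the call. Alternatives were pseudocounts of 0.5 and 5, a filter on low values, *TMM* and upper-quartile scaling (edgeR 4.0.16), edgeR and DESeq2 1.42.0 on reads, a fit of all 12 libraries, robust moderation, other thresholds, and leaving out each library. The limma, edgeR and DESeq2 fits were also run on simulated data with the same spread for every gene and no outlying library. That run is not used as support for the calls. A gene without reads in a group was set against a floor of 3 reads per library. Tables and figures used Python 3.11.15, pandas 2.3.3, numpy 2.4.6, scipy 1.17.1 and matplotlib 3.10.9.

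The rule for named genes took *RTNLB16* and its neighbourhood, control and marker genes, and the most changed members of each list and of all genes, 209 in all, and 46 more were chosen after their values were seen (for example *LHY*, *CCA1*, *ICS1*, *FT*, *CHS* and *ACD6*). The comparison, the 35 lists and the 18 families were chosen with earlier results of these data known. Families were matched by symbol, so the plant defensin family counts *PDF1* (protodermal factor 1). The CRK family holds both AT1G70530 and AT2G46700 under the symbol CRK3. Under the symbol SAUR21, the SAUR family holds AT5G01830 and not AT5G18030 of the auxin list.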

Additional observations from a re-analysis of the deposited data

How the results depend on the processing

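The counts of 1464 higher and 1231 lower genes stayed within 1.5 times under other pseudocounts, a filter on low values, *TMM* and upper-quartile scaling, edgeR, DESeq2, a fit of all 12 libraries and robust moderation, and no named gene that was called changed direction. An unadjusted p under 0.01 gave 2321 higher and 2017 lower genes, and an adjusted p under 0.05 gave 2267 and 1972. Leaving out 1 library gave 81 to 454 higher and 19 to 124 lower genes, and 26 to 78 called list members in place of 320. With the spread taken also from the CLL libraries, the nearly alike 68 and 69 among them, the ranges were 1183 to 1579 and 1115 to 1558. Over all genes, the median of the log2 fold changes was 0.10 with edgeR, 0.07 with DESeq2, 0.08 with upper-quartile scaling and -0.01 after the filter. Among named genes, edgeR did not call *PDF1.5* and *THI2.1*, DESeq2 did not call these or *BHLH101*, *GL1* and *PAP2*, and upper-quartile scaling did not call *HB-2* and *SBPASE*. A pseudocount of 5 lost the most named calls, 11 in all (*CYP96A15*, *GGP1*, *GSTF14*, *HB-2*, *NAC089*, *PDF1.5*, *PIP2A*, *PSAO*, *PSBQ2*, *SBPASE* and *THI2.1*), and the fit of all 12 libraries lost *CER4*, *COR15A*, *GL1* and *PDF1.5*. The cause of these differences was not tested. No paired analysis was possible because the groups share no replicate numbers.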
